A study of Homo sapiens with 8 samples.

Results

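The HIST genes are the histone genes that carry a symbol of HIST followed by a digit, the older naming used in the annotation behind these counts. Every row symbol of that form was taken, 89 of the 56638 symbols in the tables, without use of any measured value. By class, 8 were H1, 22 were H2A, 26 were H2B, 17 were H3 and 16 were H4. By cluster, 67 belonged to HIST1 on chromosome 6, 17 to HIST2 and 4 to HIST3 on chromosome 1, and 1 to HIST4 on chromosome 12. Of the 89, 68 matched a protein-coding gene with a sequence in the GENCODE v44 gene models. The others were pseudogenes or symbols without such a match.

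The counts came from RNA-Seq of SCC25, a squamous carcinoma cell line from the tongue in which the transcription factor ETS1 had been knocked down. For loss over a short time a pool of siRNAs against ETS1 was transfected (ETS1 siRNA) beside a control siRNA (siRNA control). For loss over a long time cells were transduced with a lentiviral hairpin against ETS1 and selected with puromycin (shETS1), beside cells with a control hairpin (shCON). Each of the 4 groups had 2 replicates, 8 libraries in all, and all cells were grown in the same medium with serum and hydrocortisone. All libraries were from 1 cell line, and shETS1 was 1 hairpin. The study's methods call the siRNA replicates biological, and for the shRNA replicates the sources used here do not say whether they were separate cultures, so that p-values there measure the spread between these libraries.

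Total counts ranged from 15954616 to 20469763 in the siRNA libraries and from 23834078 to 25953213 in the shRNA libraries. The targeted gene ETS1 was at 288 and 248 CPM in siRNA control and 17.4 and 13.2 CPM in ETS1 siRNA, and at 82.3 and 72.1 CPM in shCON and 9.76 and 11.1 CPM in shETS1 (CPM, counts per 1000000 of a library size scaled within its table). All 10 squamous epithelial markers were detected, with a summed level of 15871 to 27127 CPM per library. The shRNA libraries stood apart from the siRNA libraries in which RNAs had counts. A list of 17 RNAs without a poly(A) tail, other than histones, held 5.70% and 6.74% of the total count in shCON and 12.5% and 9.81% in shETS1, but at most 0.00348% in any siRNA library. Mitochondrial genes held 0.508% to 0.820% in the shRNA libraries and had 0 counts in all others. The labels give 1 RNA kit for all libraries, and the effect of the table and that of the kind of knockdown cannot be told apart. Whether the library preparation or the counting differed between the tables is not given in the sources used here. The 10 markers of blood, endothelial and muscle or stromal cells summed to 1.54 to 3.45 CPM, and 4 of them had at most 3 counts in every library.

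Histones package DNA. The core histones H2A, H2B, H3 and H4 form the nucleosome, and the linker histone H1 binds where the DNA enters and leaves it. Most HIST genes are replication-dependent: they are transcribed in S phase, when new DNA has to be packaged, and their mRNAs have no introns and end in a stem-loop, bound by the protein SLBP, in place of a poly(A) tail. Some of these genes also give longer transcripts that end in a poly(A) tail, which are known from differentiating and non-dividing cells. A list of 14 HIST genes known for such transcripts, here called the poly(A) list, was used to divide the 89.

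The stem-loop was read from the GRCh37 genome after the stop codon of each coding HIST gene. It was found in 68 of 68 genes with 0 mismatches to the histone stem-loop consensus, at 22 to 67 bases from the stop codon (median 35). The following are shown because their genes carry the results below, with the 16 bases of the stem-loop in capitals and 5 bases on each side, 5′ to 3′ on the strand of the gene. HIST1H1C lies at chr6:26055967-26055992 (minus strand), HIST1H2AC at chr6:26124892-26124917 (plus strand), HIST1H2BK at chr6:27114140-27114165 (minus strand), HIST1H3D at chr6:26197012-26197037 (minus strand), HIST1H4E at chr6:26205224-26205249 (plus strand) and HIST1H4I at chr6:27107428-27107453 (plus strand).
HIST1H1C: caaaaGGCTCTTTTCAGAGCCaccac
HIST1H2AC: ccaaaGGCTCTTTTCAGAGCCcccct
HIST1H2BK: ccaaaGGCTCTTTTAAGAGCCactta
HIST1H3D: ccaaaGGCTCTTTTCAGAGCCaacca
HIST1H4E: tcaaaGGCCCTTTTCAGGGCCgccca
HIST1H4I: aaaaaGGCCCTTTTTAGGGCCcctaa

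There were 10 distinct stem-loops. The most common one, that of HIST1H1C, HIST1H2AC and HIST1H3D, was carried by 40 genes, none of them H4. The stem-loop of HIST1H2BK was carried by 9 genes, that of HIST1H4E by 9 and that of HIST1H4I by 4, and the last pair were carried by H4 genes only. HIST1H1C and HIST1H2AC are on the poly(A) list and carry the same 16 bases as HIST1H3D, which is not, so the poly(A) list is not marked by the stem-loop. The annotated end in GENCODE v44 differed for many listed genes but not for all. The counts were made on Ensembl GRCh37 genes, whose ends can differ from these. The gene model ran more than 100 bases past the stem-loop in 10 of the 13 listed genes with a sequence and in 9 of the 55 others. For the listed HIST1H1C and HIST1H2BK it ended 4 and 5 bases past the stem-loop, much as for HIST1H3D (5 bases).

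The share of reads in HIST genes was the first comparison. It was 0.0222% and 0.0226% of the total count in siRNA control and 0.0236% and 0.0247% in ETS1 siRNA. In the shRNA libraries it was 0.849% and 0.926% in shCON and 0.532% and 0.512% in shETS1. Within each table the groups did not overlap: ETS1 siRNA was slightly above its control, at a ratio of 1.08, and shETS1 was below its control, at a ratio of 0.588. With 2 libraries against 2 the exact permutation test cannot give a p below 0.333, so no p is given for these sums.

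Counting error was small against these differences in the shRNA table. The 95% Wilson intervals, which cover counting error only, were 0.845% to 0.852% for replicate 1 of shCON and 0.529% to 0.534% for replicate 1 of shETS1. In the siRNA table the interval of replicate 2 of siRNA control, 0.0219% to 0.0233%, overlapped that of replicate 1 of ETS1 siRNA, 0.0229% to 0.0243%. Without the poly(A) list the ratio of shETS1 to shCON was 0.535, and for the listed genes alone it was 0.740.

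**Figure D1:**
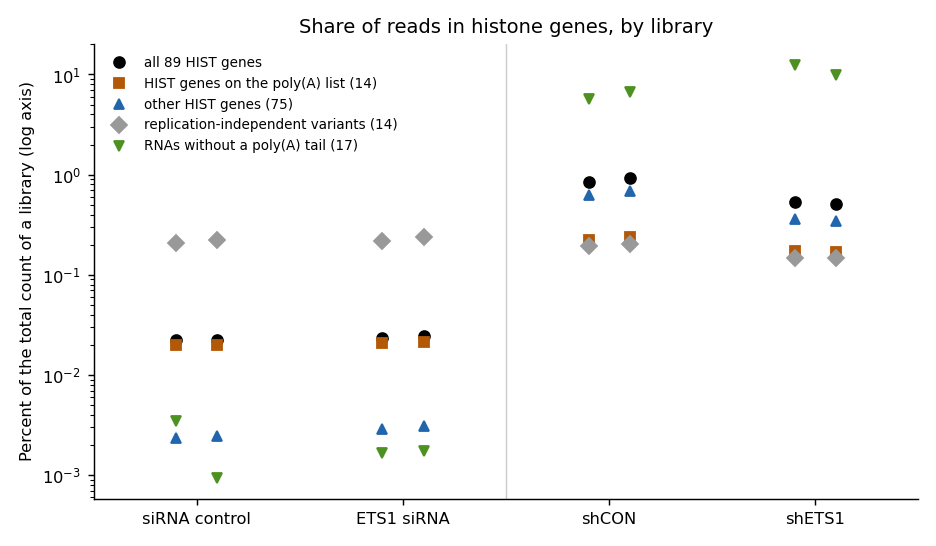
Percent of the total count of each library (log axis) taken by all 89 HIST genes, by the 14 on the poly(A) list, by the other 75, by 14 replication-independent histone variants and by 17 RNAs without a poly(A) tail, with 2 points per group for replicates 1 and 2. The HIST share is 0.0222% to 0.0247% in the siRNA libraries, 0.849% and 0.926% in shCON and 0.532% and 0.512% in shETS1, while the RNAs without a poly(A) tail are higher in shETS1 than in shCON.

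The tables themselves differed far more than the knockdowns. The mean HIST share in shCON was 39.6-fold that in siRNA control. For the 75 genes outside the poly(A) list it was 274-fold (0.657% against 0.00240%), and for the 14 listed genes 11.5-fold (0.231% against 0.0200%). For 14 replication-independent variants the share in shCON was 0.928 of that in siRNA control. That list holds H2AFZ and H3F3A, whose mRNAs are polyadenylated, and also H2AFX, which gives an mRNA that ends in the stem-loop as well. The list of 17 RNAs without a poly(A) tail and the mitochondrial genes, given above, moved with the HIST genes between the tables.

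Within the shRNA table, the RNAs without a poly(A) tail and the HIST genes went in opposite directions. The former took more of the shETS1 libraries than of the shCON libraries and the latter less, and their part in the lower HIST share was not tested. When those RNAs and the mitochondrial genes were left out of the total, the ratio of shETS1 to shCON was 0.620 in place of 0.588.

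The make-up of the HIST counts also differed between the tables. The poly(A) list held 89.5% and 89.2% of the HIST counts in siRNA control and 87.7% and 87.5% in ETS1 siRNA, against 26% and 26% in shCON and 32.7% and 32.7% in shETS1. H2B genes held 67.1% of the HIST counts in siRNA control (mean of 2 libraries), followed by H2A with 19.7%, and H3 held 2.05%. In shCON the classes were more even, with 28.9% in H2B, 20.1% in H1, 19.4% in H3, 17.9% in H2A and 13.6% in H4. In shETS1 the H3 part was lower, at 16%.

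**Figure D2:**
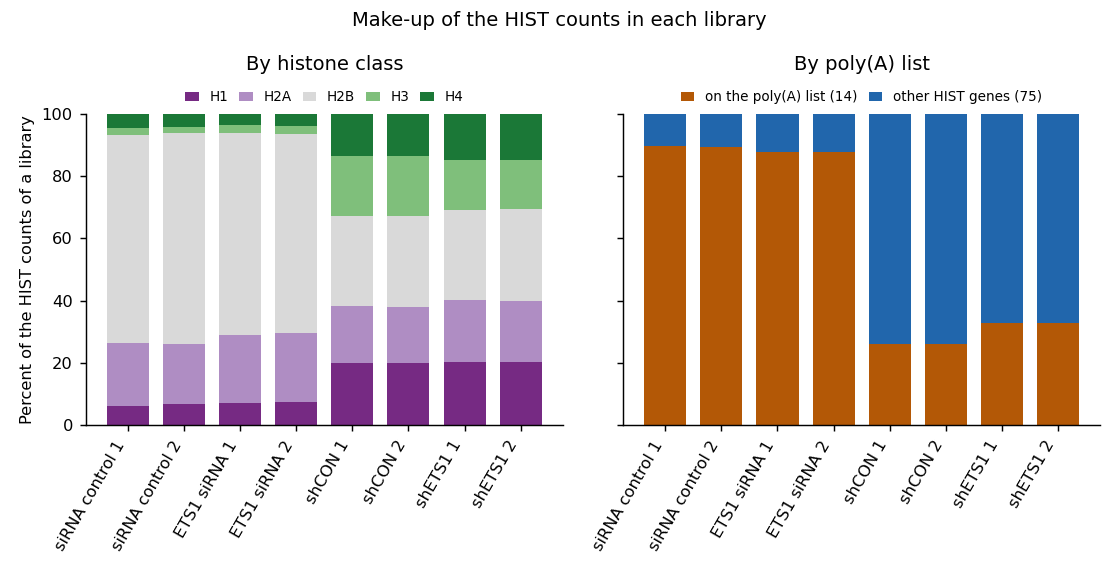
Percent of the HIST counts of each library by histone class (left) and by the poly(A) list (right), 1 bar per library. H2B and the listed genes hold most of the HIST counts in the 4 siRNA libraries, where the list takes 87.5% to 89.5%, and the list takes 26% to 32.7% in the shRNA libraries.

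Gene by gene, 27 HIST genes had at most 10 counts in every siRNA library and more than 1000 in each shCON library. HIST1H4C, an H4 gene, had 1 and 0 counts in siRNA control and 2 and 4 in ETS1 siRNA, and 4700 and 5637 counts in shCON and 3577 and 3487 in shETS1. HIST1H3B, an H3 gene, had 4 and 5 counts in siRNA control and 5 and 8 in ETS1 siRNA, and 6509 and 7499 counts in shCON and 3232 and 3294 in shETS1. By contrast HIST1H2BK, an H2B gene of the poly(A) list, had 1840 and 1584 counts in siRNA control and 1620 and 2113 in ETS1 siRNA, and 4454 and 5086 counts in shCON and 5181 and 5520 in shETS1. HIST1H2BK was the most abundant HIST gene by count in each of the 4 siRNA libraries.

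**Figure D3:**
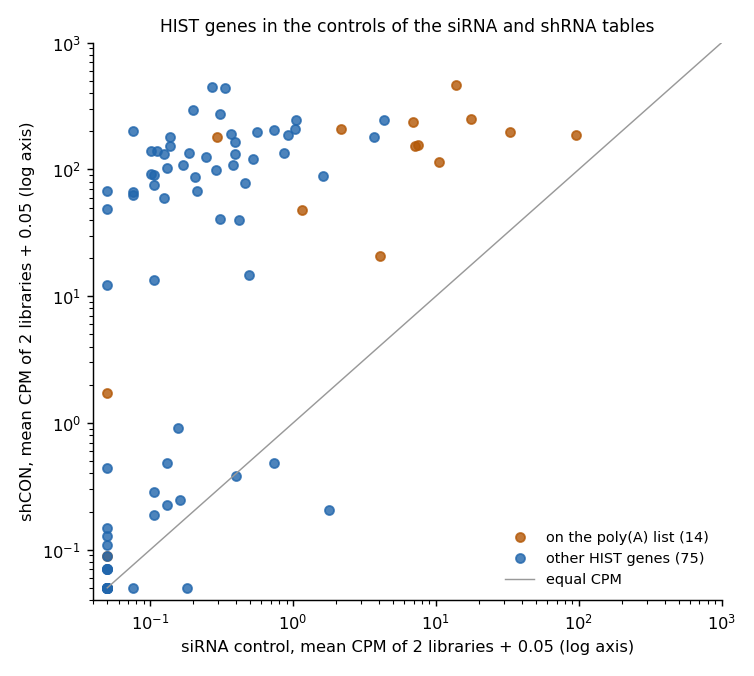
Mean CPM of each HIST gene in siRNA control and in shCON, each with 0.05 added (log axes, 89 points, 2 libraries a mean, CPM scaled within each table). Most genes lie far above the line of equal CPM, and among those above 10 CPM in shCON the listed HIST1H2BK, HIST3H2A and HIST1H2AC lie nearest to it.

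In all, 57 HIST genes had more than 100 counts in every shRNA library and 7 had more than 100 in every siRNA library. A count of 0 in all 8 libraries was found for 9 genes: HIST1H2AA, HIST1H2AD, HIST1H2APS1, HIST1H2APS2, HIST1H2APS6, HIST1H2BPS1, HIST1H2BPS3, HIST2H3C and HIST2H3PS2. The testis genes HIST1H1T, HIST1H2AA, HIST1H2BA and HIST3H3 had at most 17 counts in any library. HIST1H2AD and HIST1H2AM, with at most 7 counts, share exon bases with another gene on the same strand in GENCODE v44. So do HIST1H2AC, HIST1H3D, HIST1H3J, HIST3H2BB and HIST1H2APS4, all tested after shRNA. HIST2H2BF, HIST2H2AB, HIST1H2BC, HIST1H2BE, HIST1H4H, HIST2H2AA3 and HIST1H1PS1 overlap a gene on the opposite strand. Whether the Ensembl genes used for counting overlap in the same way was not checked. How reads on several genes were counted is not given in the sources used here, so the values of these genes are uncertain.

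Per kilobase from the start of the coding sequence to the stem-loop, shCON levels had medians of 609 CPM per kilobase over 5 H1 genes, 279 over 13 H2A genes, 318 over 15 H2B genes, 389 over 11 H3 genes and 216 over 11 H4 genes that passed the filter on low counts. The counts were of whole genes, so values of genes with longer models can be too high. For HIST2H2BE, for example, the length used was 453 bases, and the exons of its GENCODE v44 model cover 2224. The ranges overlapped, for example 95.1 to 676 in H1 and 34.9 to 663 in H4.

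Stable loss of ETS1 was compared with shCON next. After shRNA, 61 of the 89 HIST genes passed the filter on low counts, and 53 of them fell (86.9%), 4 rose and 4 were not called, by the quasi-likelihood test of edgeR with a Benjamini-Hochberg adjusted p under 0.1 over all genes tested. Of all 16481 genes tested, 30.9% fell and 29.7% rose. Without replicate 1 of shCON 53 HIST genes fell and 1 rose. The median log2 fold change of the 61 HIST genes was -0.76, beside 0.00066 over all genes tested. A fall of at least 1 on the log2 scale was called for 13 HIST genes, beside 7.78% of all genes. In 54 of the 61, both shETS1 libraries lay below both shCON libraries, which was so for 38.6% of all genes tested, and in 4 both lay above, beside 38.1%. The other 28 HIST genes had too few counts to be tested.

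**Figure D4:**
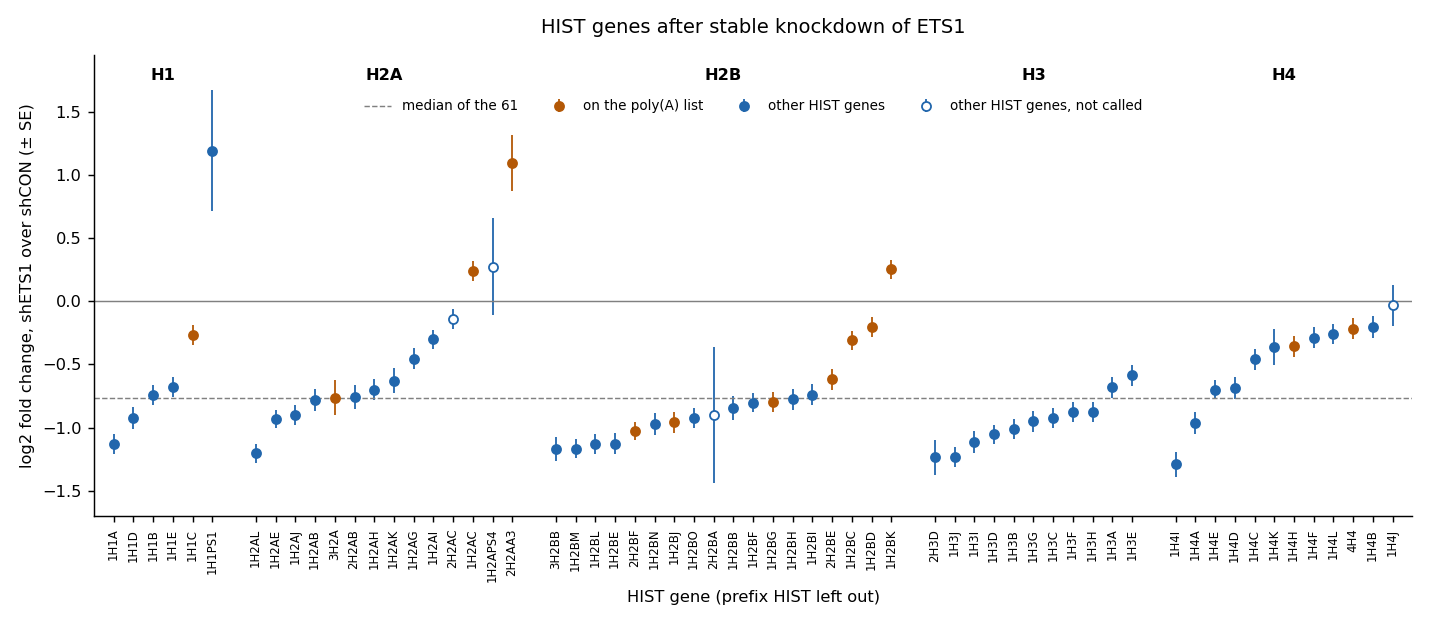
Log2 fold change of shETS1 over shCON (bars are ± SE from the edgeR fit, 2 libraries a group) for the 61 tested HIST genes, ordered within each class, with genes of the poly(A) list in brown and genes that were not called as open circles. All 11 H3 genes lie below 0, 57 of the 61 points are called, and HIST1H2AC and HIST1H2BK lie above 0.

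The H1 genes encode linker histones. Of 6 tested, 5 fell and 1 rose, with a median of -0.71. HIST1H1A was at 65.4 and 67.0 CPM in shCON and 29.7 and 30.7 CPM in shETS1, a log2 fold change of -1.13 with an SE of 0.08 (adjusted p 2.82e-09). HIST1H1B was at 426 and 467 CPM in shCON and 269 and 265 CPM in shETS1, a log2 fold change of -0.74 with an SE of 0.08 (adjusted p 3.76e-07), and HIST1H1E fell by 0.68 (adjusted p 1.64e-06). HIST1H1C, the H1 gene of the poly(A) list and the one with the most counts, was at 439.7 and 486 CPM in shCON and 401 and 368 CPM in shETS1. Its fall of 0.27 (SE 0.08, adjusted p 0.00993) was the smallest of the 5, and without replicate 2 of shCON it was -0.19 and no longer called (adjusted p 0.156). The H1 row that rose was the pseudogene HIST1H1PS1, at under 1 CPM in each library (5 and 12 counts in shCON and 14 and 23 in shETS1).

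The H2A genes encode a core histone that pairs with H2B. Of 14 tested, 10 fell and 2 rose, with a median of -0.66. HIST1H2AL showed the deepest fall: it was at 157 and 169.6 CPM in shCON and 71.2 and 70.8 CPM in shETS1, a log2 fold change of -1.20 with an SE of 0.07 (adjusted p 5.43e-10). HIST1H2AE fell by 0.93 (SE 0.07) and HIST1H2AG, the H2A gene with the most counts in shCON, by 0.46 (SE 0.09). HIST3H2A, a listed gene outside the main cluster, fell by 0.76 (SE 0.14, adjusted p 0.000151).

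The opposite direction was seen for HIST1H2AC, a listed gene. It was at 193 and 202 CPM in shCON and 248 and 218 CPM in shETS1, so that the groups did not overlap, with a log2 fold change of 0.24 with an SE of 0.08 (adjusted p 0.0161). That call was lost when replicate 1 of shCON or replicate 1 of shETS1 was left out, with library size alone as the scale, and in 1 fit of all 8 libraries, where the values ranged from 0.11 to 0.22. HIST2H2AA3 also rose, by 1.09 (SE 0.22), on 44 and 41 counts in shCON and 91 and 80 in shETS1. None of its 50-base words up to the stem-loop is unique in the genome. Its copy HIST2H2AA4 had at most 2 counts in any library, and how reads of both were divided is not given. The GENCODE v44 model of HIST2H2AA3 ran 285 bases past the stem-loop, where uniqueness was not searched, so that its value is uncertain. HIST2H2AC was at 104 and 114 CPM in shCON and 105 and 93.4 CPM in shETS1 and was not called (-0.14, adjusted p 0.157), as was the pseudogene HIST1H2APS4 (0.27).

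The H2B genes encode the partner of H2A in the nucleosome. Of 18 tested, 16 fell and 1 rose, with a median of -0.87. HIST1H2BM was at 105 and 112 CPM in shCON and 47.8 and 49.0 CPM in shETS1, a log2 fold change of -1.17 with an SE of 0.08 (adjusted p 1.03e-09). HIST3H2BB (-1.17), HIST1H2BL (-1.13) and HIST1H2BE (-1.13) fell to a similar degree. The listed genes spread widely: HIST2H2BF fell by 1.03, HIST1H2BJ by 0.96, HIST1H2BG by 0.79, HIST2H2BE by 0.62, HIST1H2BC by 0.31 and HIST1H2BD by 0.20, and the adjusted p of HIST1H2BD was 0.0344. The call of HIST1H2BD was lost without replicate 2 of shCON (-0.13, adjusted p 0.355) and without replicate 2 of shETS1 (-0.15, adjusted p 0.130).

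HIST1H2BK rose. It was at 177 and 196 CPM in shCON and 226 and 219 CPM in shETS1, with both shETS1 libraries above both shCON libraries and a log2 fold change of 0.25 with an SE of 0.08 (adjusted p 0.00870). With library size alone as the scale the value was 0.13 (adjusted p 0.140), and without replicate 1 of shCON it was 0.17 (adjusted p 0.195), neither of which was called. HIST2H2BA, at under 0.5 CPM in each shRNA library, was not called.

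The H3 genes encode the core histone whose tail carries many of the known chromatin marks. All 11 tested genes fell, with a median of -0.95 and a range of -1.24 to -0.59. HIST1H3B, the H3 gene with the most counts, was at 259 and 289 CPM in shCON and 141 and 131 CPM in shETS1, a log2 fold change of -1.01 with an SE of 0.08 (adjusted p 9.25e-09). HIST1H3J was at 94.0 and 105 CPM in shCON and 42.4 and 42.3 CPM in shETS1, a log2 fold change of -1.23 with an SE of 0.08 (adjusted p 1.03e-09). HIST1H3I (-1.11), HIST1H3D (-1.05), HIST1H3G (-0.95) and HIST1H3H (-0.87) lay close to the class median, and HIST1H3E fell least, by 0.59. HIST2H3D, from the HIST2 cluster, fell by 1.24 (SE 0.14) on 143 to 416 counts a library. As a sum over the class, H3 counts in shETS1 were at 0.486 of their share in shCON, against 0.592 for H2B, 0.596 for H1, 0.638 for H4 and 0.646 for H2A.

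The H4 genes encode the partner of H3. Of 12 tested, 11 fell and none rose, with a median of -0.36, the nearest to 0 of the 5 classes. HIST1H4I was the exception in size: it was at 69.2 and 86.7 CPM in shCON and 31.5 and 32.3 CPM in shETS1, a log2 fold change of -1.29 with an SE of 0.10 (adjusted p 6.98e-09), the deepest called fall among the 61. HIST1H4A fell by 0.96, HIST1H4E, the H4 gene with the most counts, by 0.70 (SE 0.07), HIST1H4C by 0.46 (SE 0.08) and the listed HIST1H4H by 0.36 (SE 0.08). HIST4H4, a listed gene that lies alone on chromosome 12, was at 45.5 and 49.4 CPM in shCON and 42.0 and 39.7 CPM in shETS1. Its fall of 0.22 (adjusted p 0.0333) was lost with DESeq2 (adjusted p 0.117), in 1 fit of all 8 libraries (adjusted p 0.167), without replicate 2 of shCON (-0.16, adjusted p 0.298) and without replicate 2 of shETS1 (-0.18, adjusted p 0.115). HIST1H4J was at 9.63 and 14.8 CPM in shCON and 13.1 and 10.9 CPM in shETS1 and was not called (-0.03, adjusted p 0.888). A difference between the classes was not tested.

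Within the shRNA table the poly(A) list differed in its values from the rest. Of 13 listed genes tested, 10 fell and 3 rose, beside 30.9% and 29.7% of all genes, with a median of -0.31. Of the 48 others, 43 fell, 1 rose and 4 were not called, with a median of -0.82. The difference between these groups of genes was not tested. By stem-loop, the median was -0.91 over the 32 tested genes with the most common sequence, shown for HIST1H3D, and -0.41 over 8 tested H4 genes with that shown for HIST1H4E.

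HIST genes are near-identical copies of each other in places, and the handling of reads with several matches is not given in the sources used here. Of the 68 coding genes, 32 had only unique 50-base words from the start of the coding sequence to the stem-loop, and 44 had at least 90% unique words. The 6 genes with none, HIST2H2AA3, HIST2H2AA4, HIST2H3A, HIST2H3C, HIST2H4A and HIST2H4B, had at most 3 counts in any library, except HIST2H2AA3. Of the 37 tested genes with at least 90% unique words, 36 fell and 1 rose, with a median of -0.76, and of the 18 with fewer, 14 fell and 2 rose, also with a median of -0.76. HIST1H2BK had 33.6% unique words, HIST1H4J and HIST1H4K each 6.98%, and HIST1H2AC 98.3%.

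Short-term loss of ETS1 gave no called change in HIST genes. After siRNA, 21 of the 89 passed the filter, and edgeR called 0 at an adjusted p under 0.1, beside 3.41% of all 14742 genes tested (1.13% higher and 2.27% lower). At an unadjusted p under 0.05 there was 1, beside 18.5% of all genes. DESeq2 called 0 of the 69 it fitted, beside 299 higher and 467 lower of all 27545 genes. The median log2 fold change of the 21 was 0.24, beside 0.0018 over all genes tested. Both ETS1 siRNA libraries lay above both controls for 6 genes and below for 2, beside 25.7% and 26.2% of all genes, and the groups overlapped for 13. Standard errors ran from 0.13 for HIST1H2AC to 0.46 for HIST1H3E, so that the comparison was least precise for the genes with the fewest counts.

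The abundant listed genes had no called change between siRNA groups. For HIST1H2AC the value was close to that after shRNA (0.24, SE 0.08), but with a larger SE. HIST1H2BK was at 92.7 and 98.8 CPM in siRNA control and 94.3 and 104 CPM in ETS1 siRNA, with a log2 fold change of 0.05 with an SE of 0.13 (adjusted p 0.871). HIST1H2AC was at 34.5 and 31.6 CPM in siRNA control and 37 and 41.2 CPM in ETS1 siRNA, with both knockdown libraries above both controls and a log2 fold change of 0.24 with an SE of 0.13 (adjusted p 0.350). HIST1H1C was at 13.0 and 14.3 CPM in siRNA control and 15.9 and 17.3 CPM in ETS1 siRNA, again without overlap (0.28, SE 0.15, adjusted p 0.359). HIST1H2BD, HIST1H2BC and HIST2H2BE had log2 fold changes of 0.09, 0.06 and -0.09, with SEs of 0.15, 0.20 and 0.18.

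The H3 genes HIST1H3D, HIST1H3H and HIST1H3G had the largest positive values, on very few counts. The lowest of the 4 H3 genes tested, HIST1H3E, had 0.33, below the highest H2B (0.45) and H2A (0.41) values. HIST1H3D had 20 and 10 counts in siRNA control and 29 and 29 in ETS1 siRNA, with a log2 fold change of 0.90 with an SE of 0.38 (adjusted p 0.256). It was the gene with an unadjusted p under 0.05 (0.0430), and in 1 fit of all 8 libraries its value of 0.89 was called (adjusted p 0.0605). That fit shares 1 spread per gene with the shRNA libraries, which varied less, so it can understate the spread of the siRNA libraries. HIST1H3H had 20 and 12 counts in siRNA control and 24 and 33 in ETS1 siRNA (0.77, SE 0.36) and HIST1H3G 15 and 10 counts in siRNA control and 18 and 22 in ETS1 siRNA (0.61, SE 0.38). The H4 genes HIST1H4E, HIST4H4 and HIST1H4H had values of -0.46, -0.58 and -0.24, none past the threshold. The other 68 HIST genes had too few siRNA counts to be tested, in libraries whose HIST share was low (0.0222% to 0.0247%).

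The knockdowns were then compared with each other by testing the shRNA effect minus the siRNA effect in 1 fit of all 8 libraries. Of 62 HIST genes tested, edgeR called 21 lower and 0 higher, beside 19.7% lower and 15.1% higher of all 17190 genes tested. DESeq2 called 17 lower and 0 higher of the 80 HIST genes it fitted, beside 2833 lower and 1987 higher of all 35372 genes. Of the 21, 12 had been tested after siRNA. HIST1H3D had the difference with the smallest adjusted p among the named H3 genes, at -1.96 (SE 0.27, adjusted p 0.000522), from 0.90 after siRNA and -1.05 after shRNA. HIST1H2BJ differed by -1.31 (SE 0.22, adjusted p 0.00183), from 0.33 after siRNA and -0.96 after shRNA. HIST1H1C, whose counts were sufficient in both tables, differed by -0.57 (SE 0.15, adjusted p 0.0160). For HIST1H2BK and HIST1H2AC no difference was called, with 0.18 (SE 0.14) and -0.03 (SE 0.15). The fit takes 1 spread per gene from both tables, with a common dispersion of 0.0109, beside 0.0192 for siRNA and 0.00402 for shRNA alone. It can understate the spread of the siRNA libraries, and the SE of HIST1H3D is smaller here than after siRNA alone. The adjusted p values of the differences can therefore be too small.

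Few siRNA counts limited this comparison. Of the 21, 9 had not passed the filter after siRNA and entered the fit only through the shRNA libraries, where they were high, so that nothing is read from the count of 21 of 62. Of these, 5 had at most 10 counts in every siRNA library, and their fitted differences depend on the prior count and are no bound. Of the named genes among the 21, 7 lost their call when 1 or more of the libraries was left out: HIST1H1A, HIST1H3B, HIST1H3E, HIST1H4C, HIST1H4I, HIST2H2BE and HIST3H2A. For HIST1H3E, for example, the value lay between -1.28 and -0.65. When 10 counts were required in every library, 19 HIST genes were left and 11 of them were lower. The share of all genes under that filter is not given here, so nothing is read from that count. In this comparison the kind of knockdown cannot be told apart from the tables.

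Promoters were read from RefSeq (GRCh38.p14) for 61 HIST genes, from 250 bases before to 50 after the start, because H2A and H2B genes often lie head to head and share the stretch between them. The letters ATTTGCAT, the octamer that POU2F1 is known to bind, were found on either strand in 39.3% of the HIST promoters, beside 2.19% of all 27305 promoters, and in 73.3% of H2A and 75% of H2B promoters. CCAAT was found in 85.2%, beside 39.7% of all promoters, and in 18.2% of H4 promoters. TATAAA was found in 68.9%, beside 14%. CCGGAA, a core that ETS factors are known to bind, was found in 14.8%, beside 20.1% of all promoters, and in 45.5% of the 11 H4 promoters. The letters were searched on both strands and each motif was counted without regard to the others. These matches are descriptions of letters and not sites of binding.

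In 7 cases 1 octamer served as the match of 2 HIST genes, 6 of them an H2A gene and an H2B gene. The stretches of HIST1H2BC with HIST1H2AC (chr6:26124034-26124057), of HIST1H2BJ with HIST1H2AG (chr6:27132827-27132850), of HIST1H2BM with HIST1H2AJ (chr6:27814966-27814989) and of HIST2H2BE with HIST2H2AC (chr1:149886713-149886736) are shown because both neighbours were tested, with that of HIST1H2BK (chr6:27146889-27146912). All are GRCh38.p14, on the strand that reads ATTTGCAT, with the octamer in capitals.
HIST1H2BC: catacctcATTTGCATagctctgc
HIST1H2BJ: ttcaccttATTTGCATaagcgatt
HIST1H2BM: tactcctaATTTGCATaataacat
HIST2H2BE: gagccctaATTTGCATaaggtggt
HIST1H2BK: ttcaccttATTTGCATgagaggtc

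Neighbours that share an octamer did not always move together after shRNA. HIST1H2AC rose by 0.24 while HIST1H2BC fell by 0.31. HIST1H2AG and HIST1H2BJ fell by 0.46 and 0.96, and HIST1H2AJ and HIST1H2BM by 0.90 and 1.17. For HIST2H2AC (-0.14, not called) and HIST2H2BE (fell by 0.62) the values also differed. Over tested genes with and without the octamer, the median log2 fold change was -0.82 (20 genes) and -0.72 (28 genes), and with and without CCGGAA it was -0.63 (4 genes) and -0.78 (44 genes).

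Other genes of histone supply were given from lists. Over all genes tested after shRNA, 30.9% fell and 29.7% rose. The replication-independent variants are histones made outside S phase or placed at particular sites. After shRNA 8 of 11 tested fell and 2 rose, with a median of -0.42. H2AFX, which is phosphorylated at DNA breaks and also gives an mRNA that ends in the stem-loop, was at 77.1 and 78.1 CPM in shCON and 28.9 and 33.3 CPM in shETS1, a log2 fold change of -1.32 with an SE of 0.09 (adjusted p 9.41e-10). CENPA, the H3 of the centromere, fell by 1.08 and H2AFZ by 0.42. H3F3A, which encodes H3.3, rose by 0.31 (adjusted p 0.00177), and H3F3B, which encodes the same protein, was not called (-0.11). After siRNA, edgeR and DESeq2 each called 0 variants, with 1 of 11 at an unadjusted p under 0.05 by edgeR, beside 18.5% of all genes.

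Among 18 genes for histone gene transcription and 3′ end formation, 9 fell and 2 rose after shRNA, with a median of -0.21. SLBP, which binds the stem-loop, was at 62.1 and 67.2 CPM in shCON and 47.1 and 46.9 CPM in shETS1, a log2 fold change of -0.46 with an SE of 0.08 (adjusted p 8.91e-05). LSM10, of the small nuclear particle that guides cleavage of the 3′ end, fell by 1.92 (SE 0.17), and ZCCHC6, a uridylyl transferase that acts in histone mRNA decay, rose by 0.52 (SE 0.07). NPAT, the coactivator of HIST genes, was at 76.5 and 77.4 CPM in shCON and 76.5 and 77.4 CPM in shETS1 and was not called (0.00, SE 0.07). Of 20 histone chaperones, 15 fell and 1 rose, with a median of -0.34, and CHAF1A and CHAF1B, of the factor that loads H3 and H4 on new DNA, fell by 1.14 and 1.26. NASP, which binds soluble H1, H3 and H4, fell by 0.91. After siRNA, edgeR called 0 of the 18, with 2 at an unadjusted p under 0.05, and 0 of the 20, with 4, beside 18.5% of all genes. DESeq2 called 0 of the 18 and 3 of the 20 (2 higher and 1 lower), beside 299 higher and 467 lower of all 27545 genes.

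S phase genes are the setting in which HIST mRNAs are made. After shRNA 38 of 40 fell and 1 rose, with a median of -0.86, beside -0.76 for the HIST genes and 0.00066 for all genes. RRM2, of ribonucleotide reductase, was at 161 and 152 CPM in shCON and 41.3 and 49.0 CPM in shETS1, a log2 fold change of -1.79 with an SE of 0.09 (adjusted p 1.87e-11). After siRNA 4 of the 40 rose, CDK2, CDT1, GINS2 and FEN1, beside 1.13% of all genes tested. None fell, beside 2.27% of all genes, and the median was 0.15. CDT1, which licenses origins, was at 39.9 and 44.2 CPM in siRNA control and 66.5 and 65.4 CPM in ETS1 siRNA, with a log2 fold change of 0.65 with an SE of 0.12 (adjusted p 0.0443), and after shRNA it fell by 1.40. Each of these 4 calls after siRNA was lost when 1 or more of the libraries was left out, with values of 0.50 to 0.84 and adjusted p values up to 0.673. DESeq2 called 6 of the 40 higher and 1 lower, beside 299 higher and 467 lower of all 27545 genes it fitted. The part of a change in cell cycle in the HIST values was not tested. The RNAs without a poly(A) tail went the other way after shRNA: all 13 tested rose, with a median of 1.10.

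**Figure D5:**
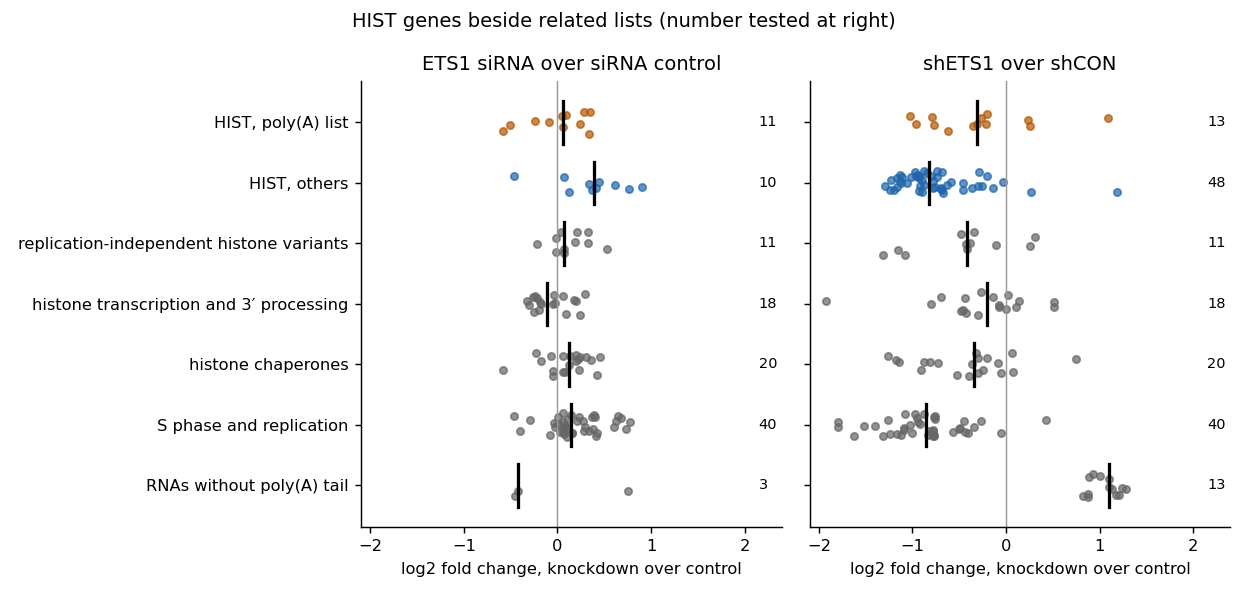
Log2 fold change of each tested gene in HIST genes on and off the poly(A) list and in 5 related lists, after siRNA (left) and shRNA (right). Points are genes, their vertical scatter has no meaning, black bars are medians and the number tested stands at the right. After shRNA the medians are -0.82 for HIST genes off the list, -0.86 for S phase genes and 1.10 for RNAs without a poly(A) tail.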

How the data were processed

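RNA-Seq libraries were made by the authors from total RNA with an Illumina TruSeq RNA kit, and single-end reads were mapped to GRCh37 with TopHat2 2.1.1 and Bowtie2 2.2.6. The authors deposited raw counts by gene symbol, made with featureCounts 1.5.0 on Ensembl genes, in a table for each knockdown. The tool versions are from the submitters' processing notes. Whether strand was used and how multi-mapping reads were handled is not given in the sources used here, so reads of overlapping or near-identical genes may be shared between them. The columns of all 8 samples were used. Replicates of each group differed by more than sampling noise (chi-square per degree of freedom from 6.23 to 23.2).

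Each knockdown was set against its own control in R 4.3.3 after TMM scaling and filterByExpr, with the quasi-likelihood test (edgeR 4.0.16, no side preferred) and Benjamini-Hochberg adjustment over all genes tested. Genes with an adjusted p under 0.1, the threshold of the study, were called. The SE is the log2 fold change divided by the square root of F. The difference between the knockdowns was tested in 1 fit of all 8 libraries. Shares are percents of the total count of a library, with Wilson intervals. The common dispersion was 0.0192 for siRNA, 0.00402 for shRNA and 0.0109 for the difference, where the libraries of both tables share 1 spread. The test was also run on data simulated with 1 common dispersion for all genes, which real genes do not share. It recovered 74.2% (siRNA), 89.2% (shRNA) and 63.6% (difference) of changes of 1 on the log2 scale. Of its calls, 6.49%, 6.95% and 9.49% were false.

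Stem-loops were searched in the 150 bases after the stop codon in GRCh37, with GENCODE v44 models lifted to that build and up to 1 mismatch allowed. Of the 89 HIST symbols, 4 matched a current symbol, 80 an older one, 1 several genes and 4 none. A 50-base word was counted as unique when it occurred once in the genome on either strand.

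The HIST genes and the 9 lists were chosen with earlier results of these data known. Named were the 3 HIST genes with the most counts of each class in each table, up to 10 called rises and falls of largest size per knockdown with groups that did not overlap and a mean CPM of 1 or more, the 3 largest called differences between knockdowns in each direction with the same minimum, the poly(A) list, ETS1, H2AFX, H2AFZ, H3F3A, H3F3B, CENPA, SLBP, NPAT, and up to 4 called genes by adjusted p of each list in each knockdown. HIST genes named beyond these, such as HIST1H2AJ, HIST1H4A and those with low or no counts, were chosen after their values were seen. Alternatives were DESeq2 1.42.0, other scalings and filters, a threshold of 0.05, a block for the replicate number, 1 fit of all 8 libraries and each library left out in turn. A crossed block and a fit without RNAs lacking a poly(A) tail and mitochondrial genes were added after seeing the data.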

Additional observations from a re-analysis of the deposited data

Results flagged for a closer look

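These results stand out because the shRNA effect and the siRNA effect differed by the edgeR test of their difference, in 1 fit of all 8 libraries, at an adjusted p under 0.1. In all, 21 HIST genes were lower in that difference, beside 19.7% of all genes tested, of which 9 could pass the filter only through the shRNA libraries, and the kind of knockdown cannot be told apart from the tables.

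Among HIST genes that were tested after both knockdowns, the difference in log2 fold change was -1.96 for HIST1H3D, -1.66 for HIST1H3H, -1.58 for HIST1H3G and -0.95 for HIST1H3E, all H3 genes. It was -1.38 for HIST1H2AE, -1.12 for HIST3H2A and -0.85 for HIST1H2AG, of the H2A genes. It was -1.31 for HIST1H2BJ and -0.55 for HIST2H2BE, of the H2B genes, and -0.57 for HIST1H1C. The calls of HIST1H3E, HIST2H2BE and HIST3H2A were lost without 6, 5 and 4 of the 8 libraries left out in turn, with values of -1.28 to -0.65, -0.73 to -0.42 and -1.53 to -0.63. The call of HIST1H3E was also lost with DESeq2 (adjusted p 0.141) and with no filter on low counts (adjusted p 0.160).

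Among HIST genes with too few siRNA counts to be tested there, the difference was -2.76 for HIST1H1D, -2.90 for HIST1H1A, -2.54 for HIST1H2BL, -1.49 for HIST1H3B, -2.78 for HIST1H4C and -1.73 for HIST1H4I. These genes entered the fit through the shRNA libraries, where they were high, and their fitted values depend on the prior count, so the values are given as a description and nothing is read from the calls. The calls of HIST1H1A, HIST1H3B, HIST1H4C and HIST1H4I were lost without at least 1 library, with values of -5.50 to -2.09, -1.81 to -1.19, -5.39 to -2.06 and -2.16 to -1.23. Those of HIST1H1A and HIST1H4C were also lost with DESeq2 (adjusted p 0.147 and 0.142) and with no filter on low counts (adjusted p 0.149 and 0.108).

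Among the histone variants, the difference was -1.55 for H2AFX, -1.50 for H1F0, -1.17 for CENPA, -0.63 for H2AFZ and -0.49 for H2AFY, and the calls of H2AFZ and H2AFY were lost without 7 and 1 of the 8 libraries, with values of -0.90 to -0.30 and -0.55 to -0.41. Among genes of histone mRNA formation and decay it was -2.19 for LSM10, -0.88 for SRRT, -0.68 for SLBP, -0.46 for UPF1 and 0.72 for ZCCHC6, and the call of UPF1 was lost without 2 of the 8 libraries (-0.55 to -0.38). Among chaperones it was -1.52 for CHAF1B, -1.52 for CHAF1A, -1.43 for HJURP and -0.996 for NASP.

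Among S phase genes it was -2.08 for CDT1, -1.87 for RRM2, -1.82 for UHRF1, -1.66 for GINS2, -1.57 for DNMT1, -1.56 for CDK2, -1.56 for POLA2 and -1.38 for FEN1. For ETS1 itself, which fell after both knockdowns, it was 1.23.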

How the results depend on the processing

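The 53 falls of HIST genes after shRNA stayed between 46 and 54 under every alternative run, and no called value of a named gene changed sign. Sign changes of values called in neither the main fit nor the alternative were not counted as reversals. The 4 rises were 2 with library size alone, and 1 to 4 with each library left out, with 1 without replicate 1 of shCON. After siRNA 0 HIST genes were called under the alternatives, except 2 higher in 1 fit of all 8 libraries and 1 higher with the crossed block. For the difference between knockdowns, 21 lower calls became 11 with at least 10 counts in every library, where 19 HIST genes were left, and 16 to 20 with each library left out. Higher calls were 0, but 1 with the crossed block and 0 to 1 with each library left out, with 1 without replicate 2 of shCON or replicate 1 of siRNA control. The ratio of HIST shares without the poly(A) list was 1.25 for siRNA and 0.535 for shRNA, and for shRNA it was 0.642 with TMM-scaled library sizes. With library size alone the median of all genes after shRNA was -0.12, and that of the HIST genes -0.89.

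The replicate numbers were not shown to pair the libraries: deviations of same-numbered libraries correlated at -0.57 for siRNA and -0.13 for shRNA. With the replicate number as a block, 52 HIST genes fell and 4 rose after shRNA, beside 4724 and 4449 of all 16481 genes. In the difference between knockdowns 16 were lower, beside 2520 of all 17190 genes, and after siRNA 0 were called. Over all genes after siRNA, 22 were higher and 75 lower with the block, in place of 167 and 335, and of the S phase genes 1 was higher in place of 4. The block ended the calls of the difference for HIST1H1A (adjusted p 0.114), HIST1H4C (0.110), HIST1H3E (0.136) and HIST3H2A (0.122). With the crossed block, chosen after seeing the data, 54 HIST genes fell and 4 rose after shRNA, beside 5548 and 5375 of all 16481 genes. In the difference 24 were lower and 1 higher, beside 4123 and 3344 of all 17190 genes. After siRNA 1 HIST gene was higher, 14 S phase genes were higher and 2 lower, and 1426 of all genes were higher and 1812 lower.

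Total counts differed far less between the tables than the HIST share, which was low in the siRNA libraries: 68 HIST genes had too few counts to be tested there, and differences for genes with few siRNA counts depend on the filter. Of the named HIST genes, 5 lost their call after shRNA and 7 lost their call in the difference when a library was left out. Where a library was left out, the lone library of its group was assumed to vary like the others. With 2 libraries a group, no test here separates culture from technical spread.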
